A study of Mus musculus with 2 samples.

Results

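The miR-15/16 family and the miR-103 family are groups of related microRNAs (miRNAs), the short RNAs that guide Argonaute proteins to messenger RNAs. Their 7 members were taken by their names on the array, out of 1881 mouse miRNAs. The first family comprised mmu-miR-15a-5p, mmu-miR-15b-5p, mmu-miR-16-5p, mmu-miR-195a-5p and mmu-miR-497a-5p, and the second mmu-miR-103-3p and mmu-miR-107-3p, with the prefix for mouse left out from here on. The RNA came from exosomes, small vesicles released by cells, shed into culture medium by bone marrow mesenchymal stem cells (BMSCs) of C57BL/6 mice, which the authors bought. Per the methods, both groups had spent 72 h in medium whose serum had been depleted of exosomes. The normoxia group has no oxygen level in its labels, and the hypoxia group was held at 0.2% oxygen. Exosomes were purified by centrifugation, filtration and a precipitation reagent, so the preparations hold whatever that procedure precipitates. Each condition was measured on 1 Agilent array with 1 colour (Cy3), and the submitters state that the experiment was not repeated, so no test was possible and no difference below has a spread between cultures.

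A miRNA finds its targets mainly through its seed, the short stretch that starts at its second base, and miRNAs with the same seed are expected to share many targets. The miR-15/16 family is known for repressing cyclins, other cell cycle genes and the survival gene BCL2, and the cluster of miR-15a and miR-16-1 is a known tumour suppressor locus that is deleted in chronic lymphocytic leukaemia. The genes of miR-103 and miR-107 lie inside genes for pantothenate kinases, the enzymes that start coenzyme A synthesis, and both miRNAs are known to repress Dicer and to act in insulin sensitivity. miR-16-5p and miR-103-3p are also often used as reference RNAs in qPCR of cells, serum and vesicles.

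The mature sequences show how the families are built and which members a probe has to tell apart. They were taken from RefSeq (GRCm38.p6), where all 7 members had an entry, and are written 5′ to 3′ with the seed, bases 2 to 8, in capitals. The last one, miR-322-5p, is not a member by name and carries the seed of the first family.

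miR-15a-5p: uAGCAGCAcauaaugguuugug

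miR-15b-5p: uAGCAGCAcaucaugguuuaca

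miR-16-5p: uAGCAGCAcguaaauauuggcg

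miR-195a-5p: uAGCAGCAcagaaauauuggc

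miR-497a-5p: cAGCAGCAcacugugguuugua

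miR-103-3p: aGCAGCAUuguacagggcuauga

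miR-107-3p: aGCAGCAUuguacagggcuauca

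miR-322-5p: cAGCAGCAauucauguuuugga

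The seed AGCAGCA was found in 10 of the 1608 array miRNAs that matched a RefSeq sequence (0.622%), and the seed GCAGCAU in 2 of them (0.124%), which are miR-103-3p and miR-107-3p. Both seeds hold the run GCAGCA, offset by 1 base, and 13 of the 1608 (0.808%) carry that run within bases 2 to 8. Outside the seed the members differ to varying degrees. Counted from 1 at the 5′ end, miR-103-3p and miR-107-3p are identical at 22 of 23 bases and differ by G22C. From miR-16-5p to miR-195a-5p the changes are G10A and U11G, with 19 of 21 bases identical and 1 more base at the end of miR-16-5p. miR-15a-5p and miR-15b-5p share 18 of 22 bases and differ by A12C, G20A, U21C and G22A. How far the probes of such close neighbours bind each other's RNA was not measured.

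The members come from 6 regions of the genome, each with one of them or a pair (GRCm38.p6 positions of the mature miRNA). miR-15b-5p lies at chr3:69009775-69009796 and a first copy of miR-16-5p at chr3:69009918-69009939, both on the plus strand inside Smc4, a condensin gene, with 121 bases between them. The other copy of miR-16-5p lies at chr14:61631936-61631957 and miR-15a-5p at chr14:61632075-61632096, both on the minus strand inside the long non-coding gene Dleu2, with 117 bases between them. miR-497a-5p at chr11:70234730-70234751 and miR-195a-5p at chr11:70235062-70235082 are 310 bases apart on the plus strand, and no other gene of the table overlaps them. miR-107-3p lies at chr19:34820700-34820722 on the minus strand inside Pank1, and miR-103-3p has 2 copies on the plus strand, at chr11:35782447-35782469 inside Pank3 and at chr2:131288103-131288125 inside Pank2. The copies of miR-16-5p and of miR-103-3p give the same mature RNA, so the array could not tell their loci apart.

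Of the 7 members, 6 were detected in normoxia and 5 in hypoxia. A probe, an oligonucleotide printed at several spots, was called detected when over 50% of its spots without an outlier flag were well above background by the scanner software, and a miRNA was detected through any 1 probe. Of all 1881 miRNAs, 12.0% were detected in normoxia and 10.6% in hypoxia. miR-15a-5p, miR-15b-5p, miR-16-5p, miR-497a-5p and miR-107-3p were detected on both arrays, miR-103-3p in normoxia only and miR-195a-5p on neither. Each member had 2 probes, and the outlier flags removed 7 of their 210 spots in normoxia (3.33%) and 9 of 210 in hypoxia (4.29%). The hypoxia array was the noisier of the pair, with a median coefficient of variation over the spots of a probe of 15.8% against 9.68% in normoxia, and its extraction was marked by the software for evaluation.

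Processed signals, the background-subtracted intensities of the spots before any normalization, are given first, as mean ± SD over the n spots of a probe. Each probe's level in normoxia is set against its own level in hypoxia. miR-16-5p, whose targets include cyclins, gave 4033 ± 307 in normoxia (SD, n = 15 spots) and 3170 ± 320 in hypoxia (n = 14) on its probe A_54_P1302. The spots ran from 3393 over a median of 4071 to 4553 in normoxia, and from 2548 over 3124 to 3801 in hypoxia. The spot ranges overlapped, with 11 of the 14 hypoxia spots below the lowest normoxia spot. On its other probe, A_54_P1301, miR-16-5p gave 1071 ± 79.0 in normoxia (883, 1077 and 1187 as lowest, median and highest of 14 spots) and 844 ± 156 in hypoxia (550, 841 and 1051 of 14 spots), and 8 hypoxia spots lay below the normoxia range. The unnormalized log2 difference of miR-16-5p, hypoxia minus normoxia, was −0.35 on the first of these probes and −0.34 on the second, so they gave nearly the same step down.

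miR-15a-5p, its neighbour in Dleu2, gave 668 ± 26.3 in normoxia (631, 674 and 719 as lowest, median and highest of 14 spots) and 568 ± 29.2 in hypoxia (518, 572 and 608 of 14 spots) on probe A_54_P4381. All 14 hypoxia spots of that probe lay below all normoxia spots. On probe A_54_P4382 it gave 855 ± 37.7 in normoxia (784, 859 and 916 of 15 spots) and 716 ± 71.0 in hypoxia (570, 728 and 816 of 15 spots), with 12 of 15 hypoxia spots below the normoxia range. The unnormalized log2 differences of miR-15a-5p were −0.23 and −0.26.

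miR-15b-5p, the partner of the other miR-16 copy, gave 1016 ± 44.5 in normoxia (911, 1013 and 1079 of 14 spots) and 782 ± 87.0 in hypoxia (573, 788 and 907 of 15 spots) on probe A_54_P1006, and the spot ranges did not overlap. Its dimmer probe, A_54_P1005, gave 99.8 ± 8.77 in normoxia (85.4, 99.9 and 118 of 14 spots) and 74.7 ± 10.9 in hypoxia (54.8, 72.7 and 91.5 of 14 spots), with 10 of 14 hypoxia spots below the normoxia range. The unnormalized log2 differences of miR-15b-5p were −0.38 and −0.42, again alike on both probes.

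miR-497a-5p and miR-195a-5p, which share a cluster on chromosome 11, were at or near background. miR-497a-5p was detected on 1 of its probes, A_54_P4409, with 34.8 ± 4.85 in normoxia (25.4, 35.1 and 44.8 as lowest, median and highest; 15 of 15 spots above background) and 30.2 ± 8.36 in hypoxia (4.22, 31.9 and 40.8; 14 of 15 above background). The spot ranges of miR-497a-5p overlapped over most of their length, and its other probe had no spot above background on either array, with means of 2.92 and 2.71. miR-195a-5p had a mean of 11.5 ± 3.27 in normoxia, with 1 of 15 spots above background, and of 6.55 ± 2.74 in hypoxia, with 0 of 15, on its brighter probe A_54_P1154. By the rule on spots it was therefore detected on neither array, whereas the software's own call per miRNA had it detected in normoxia. Its signal was this low although it matches the bright miR-16-5p at 19 of 21 bases, and no difference is given for it.

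**Figure D1:**
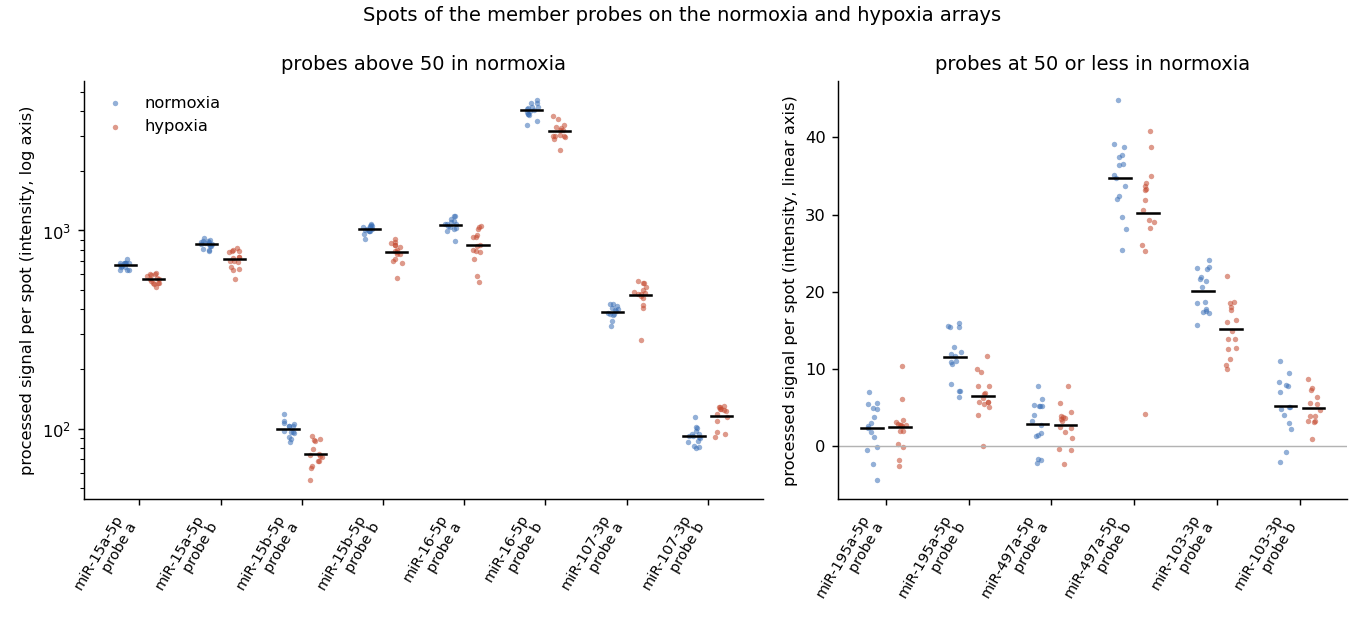
Processed signal of every spot without an outlier flag for the 14 probes of the 7 members, normoxia in blue and hypoxia in red, with a black line at the probe mean; the left panel (probes above 50 in normoxia) has a log axis and the right panel a linear one. The 6 probes of miR-15a-5p, miR-15b-5p and miR-16-5p sit lower in hypoxia and the 2 probes of miR-107-3p higher, while the probe means of miR-195a-5p, miR-103-3p and 1 probe of miR-497a-5p are at 20.1 or lower on both arrays.

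miR-107-3p went the other way before any normalization. Its probe A_54_P1420 gave 389 ± 27.7 in normoxia (330, 392 and 427 as lowest, median and highest of 13 spots) and 472 ± 71.1 in hypoxia (279, 480 and 554 of 14 spots). Of the 14 hypoxia spots, 11 lay above the highest normoxia spot and 1 below the lowest. Its probe A_54_P1421 gave 92.0 ± 9.11 in normoxia (79.4, 91.4 and 114 of 15 spots) and 116 ± 14.1 in hypoxia (90.6, 123 and 130 of 13 spots), with 8 of 13 hypoxia spots above the normoxia range. The unnormalized log2 differences of miR-107-3p were 0.28 and 0.34, so both of its probes stepped up by a similar factor. The 7 detected probes of the first family stepped down. A step down was common on these arrays, since the unnormalized median over all miRNAs detected on both was −0.27.

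miR-103-3p, which differs from miR-107-3p by G22C, was near the limit of detection. On probe A_54_P1341 it gave 20.1 ± 2.70 in normoxia (15.8, 20.7 and 24.1 as lowest, median and highest), where 15 of 15 spots were above background, and 15.1 ± 3.45 in hypoxia (9.95, 14.9 and 22.0), where 7 of 15 were. The spot ranges overlapped, and 1 more spot above background would have made miR-103-3p detected in hypoxia too. Its other probe, A_54_P1342, had no spot above background among those without an outlier flag, with means of 5.19 and 4.94. The lowest signal among all detected probes was 14.5 in normoxia and 13.5 in hypoxia. On A_54_P1341 the order of the arrays turned after quantile normalization, with 17.2 in normoxia and 18.6 in hypoxia. No fold is therefore given for miR-103-3p, and whether it moved with or against miR-107-3p was not measurable here.

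The lower unnormalized signals of the miR-15/16 members in hypoxia have to be read against the arrays as a whole. The summed processed signal of the 5 members of that family was 7795 in normoxia and 6196 in hypoxia, a ratio of 0.795, and the sum over all 1881 miRNAs was 189087 and 149773, a ratio of 0.792. The sum for miR-103-3p and miR-107-3p was 507 and 609, a ratio of 1.20. These sums weight bright probes most and carry no spread. The control RNAs added before labelling, dmr_285 and dmr_31a, had unnormalized log2 differences of −0.44 and −0.51, and those added before hybridization, dmr_3 and dmr_6, of −0.09 and −0.16. With 1 array per condition, a difference between arrays, less RNA loaded, less efficient labelling and less miRNA per vesicle cannot be told apart with these arrays.

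After quantile normalization, which gives probes of equal rank on the 2 arrays equal values, the 4 measured members of the miR-15/16 family had log2 differences with a median of 0.09. By miRNA the log2 difference was 0.02 ± 0.045 for miR-16-5p (SE over spots within the arrays), 0.08 ± 0.040 for miR-15b-5p, 0.10 ± 0.024 for miR-15a-5p and 0.33 ± 0.115 for miR-497a-5p, the last from 1 probe. Over all 180 miRNAs detected on both arrays the median log2 difference was 0.17, with quartiles of −0.41 and 0.71 and an SD of 1.20. The 4 members were thus 0.15, 0.08 and 0.07 below and 0.16 above that median, and 78, 82, 84 and 104 of the 180 miRNAs had smaller log2 differences. A place near the middle is a common one, since 83 of the 180 (46.1%) lay within 0.5 of the median on the log2 scale.

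miR-107-3p was 1.57-fold higher in hypoxia after quantile normalization, a log2 difference of 0.65 ± 0.044 (SE over spots). That is 0.48 above the median of all miRNAs. It averages 2 probes, at 0.43 and 0.87, and the SE leaves out the difference between them. Of the 180 miRNAs, 127 had smaller log2 differences. None of the 5 members measured on both arrays reached 2-fold in either direction, where 18.3% of the 180 miRNAs lay 2-fold or more higher and 10.0% lay 2-fold or more lower. miR-107-3p came nearest to that threshold.

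**Figure D2:**
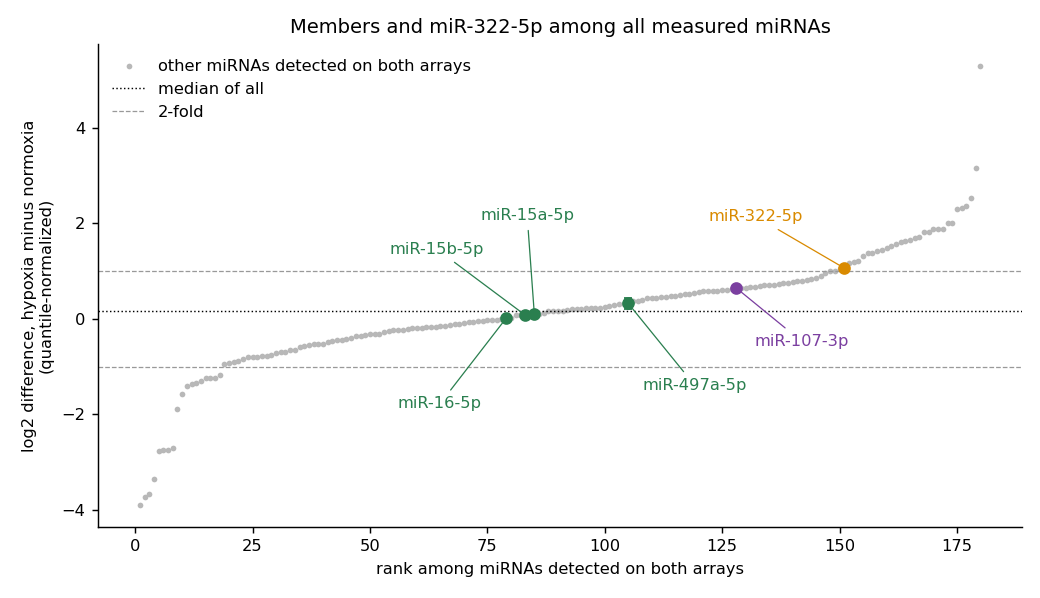
Quantile-normalized log2 difference, hypoxia minus normoxia, of the 180 miRNAs detected on both arrays in rank order, with the 5 measured members and miR-322-5p in colour (bars are the SE over spots, mostly smaller than the points), the median of all dotted and the 2-fold lines dashed. The 4 members of the miR-15/16 family sit between 0.02 and 0.33 in the middle of the ranking, miR-107-3p at 0.65 above them and miR-322-5p at 1.07 just past 2-fold.

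Differences between members do not change when an array is multiplied by 1 factor, so they were also computed pair by pair. The log2 difference of miR-107-3p was above that of miR-16-5p by 0.63 ± 0.063 (SE over spots), of miR-15b-5p by 0.56 ± 0.060, of miR-15a-5p by 0.55 ± 0.050 and of miR-497a-5p by 0.32 ± 0.124. All 4 of these gaps exceeded 2 SE, and without normalization they ran from 0.51 to 0.71. With the brightest probe of each miRNA alone, the gap over miR-497a-5p shrank to 0.10 ± 0.132, within 2 SE, and the other gaps were 0.35 to 0.54. The gap between miR-107-3p and the median of the miR-15/16 members was 0.56 after quantile normalization and 0.60 with unnormalized signals. Inside the miR-15/16 family the gaps were smaller, from 0.02 to 0.31 after quantile normalization, and 5 of 6 were within 2 SE. Those of miR-497a-5p over miR-15a-5p and miR-15b-5p were only just within, at 1.91 and 1.98 SE. The SE of miR-497a-5p comes from 1 dim probe whose lowest hypoxia spot, at 4.22, widens it.

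Which pair of that family stood apart depended on the normalization. After quantile normalization it was miR-497a-5p over miR-16-5p, by 0.31 ± 0.124, which was 0.14 with unnormalized signals. With unnormalized signals it was miR-15a-5p over miR-15b-5p, by 0.15 with an SE of 0.046, which was 0.02 after quantile normalization. Of the pairs that share a cluster, miR-15a-5p was above miR-16-5p by 0.09 ± 0.051 and miR-15b-5p above miR-16-5p by 0.07 ± 0.060, and the latter turned to −0.05 with unnormalized signals. These SEs cover spots within the arrays. They leave out the difference between the probes of a miRNA and the error between cultures, isolations and labellings.

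The normalization also acted differently on the 2 probes of a miRNA. It added 0.23 to the log2 difference of miR-16-5p on its brighter probe and 0.49 on the dimmer one, which left −0.11 ± 0.048 and 0.14 ± 0.077, opposite in sign. For miR-15b-5p it added 0.38 and 0.58, which left 0 on the brighter probe, because that probe had the same rank on both arrays, and 0.17 ± 0.065 on the dimmer one. For miR-107-3p it added 0.15 and 0.53, which left 0.43 ± 0.065 and 0.87 ± 0.061. Among all probes detected on both arrays the median amount added was 0.53 for the 90 probes with a mean signal under 50, 0.49 for the 108 between 50 and 200, 0.32 for the 75 between 200 and 1000 and 0.35 for the 32 over 1000. For miR-15a-5p it added 0.36 and 0.33, which turned both probes from below 0 to 0.12 ± 0.025 and 0.08 ± 0.040.

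**Figure D3:**
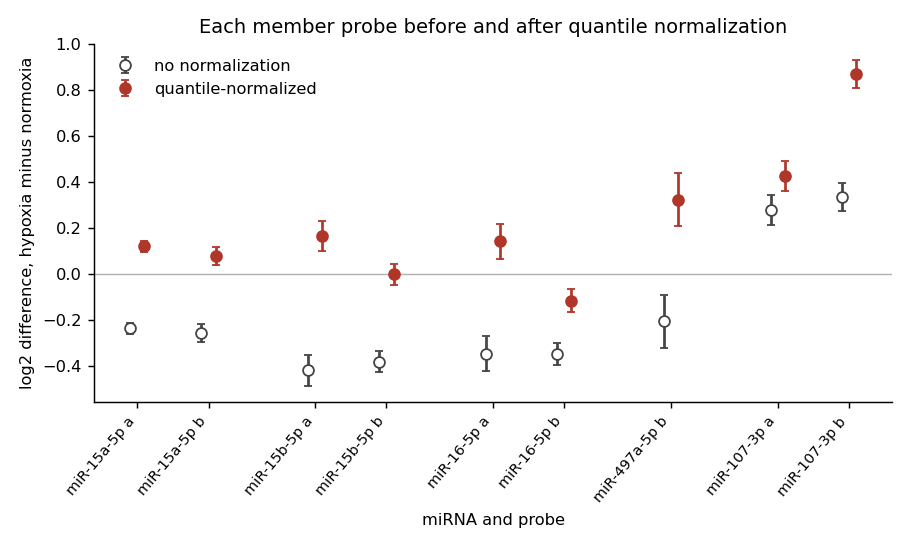
Log2 difference, hypoxia minus normoxia, of the 9 member probes detected on both arrays, unnormalized (open circles) and quantile-normalized (filled circles), with the SE over spots as bars (probes a and b as in the plot of spot signals). The paired probes of miR-15b-5p, miR-16-5p and miR-107-3p lie close together before normalization and apart after it, and the probes of miR-107-3p lie highest both times.

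Under 6 ways of scaling the arrays (quantile normalization, no normalization, the 75th percentile of all probes or of those that both arrays detected, and the hybridization or labelling spike-ins) the sign of the miR-15/16 members was not fixed. miR-16-5p ran from −0.35 to 0.58 on the log2 scale and was above 0 in 3 of 6, miR-15b-5p from −0.40 to 0.53 and above 0 in 3 of 6, miR-15a-5p from −0.24 to 0.68 and above 0 in 4 of 6, and miR-497a-5p from −0.20 to 0.72 and above 0 in 4 of 6. The median of all miRNAs moved with them, from −0.27 to 0.66. The highest value of each came from the 75th percentile of all probes. That percentile lay near background, since 9.96% of miRNA spots in normoxia and 8.59% in hypoxia were well above it. Relative to the median of all miRNAs, miR-16-5p was at −0.15 under quantile normalization and at −0.08 under each other scaling. Those others at most multiply a whole array, which leaves a distance to the median unchanged. Over all 15 settings tried, miR-16-5p ran from −0.41 to −0.07 relative to that median, always below it. The −0.41 came from leaving out the filter on dim probes, which raises dimmer probes to each array's lowest detected value. The median of all 1881 miRNAs was then 0.43, fixed by those floors. Without this setting the lower end was −0.28. miR-107-3p was above 0 in 6 of 6 scalings, from 0.31 to 1.23. It was above the median of all miRNAs in all 15 settings, by 0.22 to 0.58, or by 0.26 to 0.58 without the unfiltered setting. Because a factor per array leaves this distance unchanged, it was 0.58 under every scaling but quantile normalization, so these settings do not count separately.

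**Figure D4:**
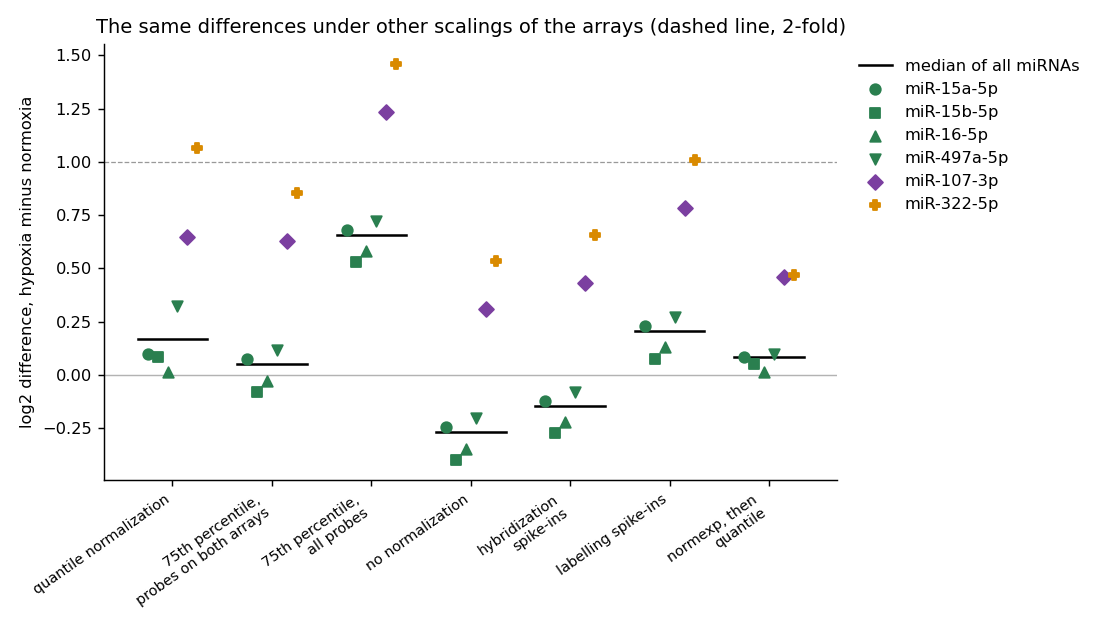
Log2 difference, hypoxia minus normoxia, of the 5 measured members and miR-322-5p under 6 scalings of the arrays and under a background correction by normexp before quantile normalization, with the median of all miRNAs as a black bar. The miR-15/16 members (green) follow the median across 0, from −0.40 to 0.72, whereas miR-107-3p (purple) and miR-322-5p (orange) stay above it.

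Other RNAs from the same hairpins and with the same seed place these values. The other arms, the strands that are usually discarded, were on the array for 8 of the 9 arms listed (24 probes). None was detected, with 0 of 225 unflagged spots above background in normoxia and 0 of 226 in hypoxia. Their probe means ran from −4.11 to 4.03 in normoxia and from −4.01 to 3.05 in hypoxia, at the level of the background. Of the 5 other miRNAs with the seed AGCAGCA, miR-195b, miR-6342, miR-6353 and miR-6419 had no unflagged spot above background on either array. miR-322-5p was detected on both.

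miR-322-5p, the mouse counterpart of human miR-424 and known from muscle differentiation and the response of endothelium to low oxygen, lies at chrX:53054306-53054327. On its detected probe A_54_P2504 it gave 39.3 ± 3.48 in normoxia (31.2, 39.3 and 44.3 as lowest, median and highest of 14 spots) and 56.9 ± 9.14 in hypoxia (41.4, 56.7 and 70.2 of 15 spots). Of the 15 hypoxia spots, 13 lay above the normoxia range. Its quantile-normalized log2 difference was 1.07 ± 0.069 (SE over spots, 2.09-fold), from 0.53 to 1.46 over the 6 scalings, and 150 of the 180 miRNAs had smaller ones. It exceeded the log2 difference of each measured member of the miR-15/16 family, with which it shares the seed, by 0.74 to 1.05 (0.74 to 0.93 with unnormalized signals), each over 2 SE. For miR-322-5p that SE covers only the spots of 1 dim probe. With the normexp background correction the gap was smaller, with miR-322-5p at 0.47 and these members at 0.01 to 0.10. Its second probe had 1 of 14 spots above background in normoxia, at a mean of 11.6 ± 3.38, and 11 of 15 in hypoxia, at 18.1 ± 4.01, so it entered the calls in hypoxia only.

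Where miR-16-5p stood among miRNAs often used as qPCR references depended on the scaling and on the value it was measured from. Of 10 listed besides miR-16-5p and miR-103-3p, 6 were detected on both arrays, with a median log2 difference of 0.53, where all 180 miRNAs had 0.17 (quantile-normalized). They ran from −0.42 for let-7a-5p over 0.16 for miR-25-3p, 0.48 for miR-425-5p, 0.58 for miR-93-5p and 0.61 for miR-26a-5p to 0.70 for miR-423-5p, and none reached 2-fold. miR-16-5p, at 0.02, was nearer to 0 than all 6 references under quantile normalization. That value averages its 2 probes, at −0.11 and 0.14, so their opposite signs bring it close to 0. With unnormalized signals miR-16-5p was at −0.35 and the 6 references had a median of −0.085 (−0.81 to 0.31). Of these references, 5 were nearer to 0 than miR-16-5p. The median of all 180 miRNAs was itself −0.27 there, so distance from 0 includes the shift of the whole array. Measured from that median, miR-16-5p was at −0.08 and all 6 references lay farther away. Under quantile normalization miR-25-3p, at −0.01 from the median of 0.17, was nearer to it than miR-16-5p, at −0.15. miR-103-3p was too dim on these arrays to be set beside the references.

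The miRNAs whose normalized levels lay closest to those of the brightest member of each family, by Euclidean distance over the 2 arrays, were miR-23a-3p, miR-20a-5p and miR-19b-3p for miR-16-5p (distances of 0.26, 0.46 and 0.55 on the log2 scale). Their own log2 differences were 0.21, −0.54 and −0.77. For miR-107-3p they were miR-574-5p, miR-222-3p and miR-100-5p (0.17, 0.27 and 0.27), with log2 differences of 0.79, 0.28 and 0.73. This measure sets different probes side by side, whose brightness also depends on the probe, and it contains the difference between the arrays, so it only describes where the points lie.

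Markers of cell types were read beside the members, since miR-16-5p is abundant in blood cells. Of 7 miRNAs listed as mesenchymal stromal markers, 6 were detected on both arrays, with a median log2 difference of 0.15 (0 to 1.20), and miR-145a-5p on neither. The detected ones were miR-199a-3p, miR-199a-5p, miR-214-3p, miR-143-3p, miR-21a-5p and miR-22-3p. How specific each is to stromal cells was not tested. Of 5 red cell miRNAs on the array, 2 were detected in normoxia and 1 in hypoxia, and their summed signal was 711 in normoxia and 39.2 in hypoxia, a ratio of 0.0551, with miR-451a at a log2 difference of −3.66. The white cell list had 1 of 4 detected in normoxia and 0 in hypoxia (summed signal 42.5 and 2.37), the endothelial miR-126a-3p was detected in normoxia only (33.3 and 4.19), and none of 4 epithelial miRNAs was detected. The summed unnormalized signal of the miR-15/16 family had a ratio of 0.795, which cannot be split by source cell with these arrays. The part of blood cell RNA in the values of these families was not tested.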

How the data were processed

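Exosomal miRNAs were measured on Agilent mouse miRNA arrays, 1 array for normoxia and 1 for hypoxia, and the groups were taken from the sample titles. Images were read with Feature Extraction 11.5.1.1 per the file headers, and this software subtracts the background and flags spots. The deposited intensity is the processed signal per spot, on a linear scale with no normalization between arrays. The series' value table was compared with it spot by spot, and the largest absolute difference was 0. The deposited flags per spot are 0 or 1, and the raw median intensity and the software's summed intensity per miRNA served for alternatives. For their own analysis the authors used GeneSpring GX and quantile normalization. The study's methods name Agilent's miRNA labelling kit, whereas the labels describe reverse transcription from a DNA primer. How that would affect the signals is not given in the sources used here. The array header names mm9, and sequences and positions are from RefSeq tables of GRCm38.p6.

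Each array had 58594 spots, 56430 of them for 4415 miRNA probes, and 9.96% (normoxia) and 8.59% (hypoxia) of the miRNA spots were well above background. Spots with an outlier flag were left out (2.96% and 3.45%), the others averaged per probe and probe means quantile-normalized in Python 3.11.15 (numpy 2.4.6, pandas 2.3.3). The log2 difference of a miRNA averages the probes that both arrays detected, and its SE comes from the spots by the delta method. A fold of 2, the fold in the study's text, was used as a threshold. No pseudocount was needed. The procedure was tested on simulated data. With 2 arrays, no test was run, and precision is limited by the number of arrays.

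The miRNAs named are the 7 members, other miRNAs with their seed, the other arms of their hairpins, the 3 miRNAs nearest in level to the brightest member of each family, and lists of reference miRNAs and cell type markers. The members and lists were chosen with earlier results of these data known. Alternatives covered the scaling of the arrays, the background (normexp, offset 50, limma 3.58.1 in R 4.3.3, on the median pixel signal because the mean pixel signal was not used here), the summary over spots and probes, flagged spots, the filter on dim probes, odd or even spots, the software's own summary and the value table.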

Additional observations from a re-analysis of the deposited data

How the results depend on the processing

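No paired analysis was possible because a condition is a single array without any test, and for the same reason no replicate could be left out. The median log2 difference of the miR-15/16 members, 0.09, was 0.63 when all probes set the 75th percentile, −0.30 with no normalization, −0.17 with the hybridization spike-ins, 0.38 with flagged spots kept and −0.30 with the software's summed signal. That of the miR-103 family, which is miR-107-3p alone at 0.65, was 1.23 when all probes set the 75th percentile, 0.31 with no normalization and −0.061 with the software's summed signal, where miR-103-3p entered beside it at −0.41. The 75th percentile set by all probes put 1 member, miR-107-3p, past 2-fold. Of all miRNAs detected on both arrays, the 33 at least 2-fold higher became 58 with the 75th percentile of all probes, 20 with no normalization and 11 with normexp. The 18 at least 2-fold lower became 10, 36 and 11 in the same order, 30 with the hybridization spike-ins, 9 when every spot had to be above background and 50 with the software's summary. With normexp, miR-322-5p was at 0.47 and miR-107-3p at 0.46. Its offset of 50 is added to every spot, which by construction shrinks the log2 differences of dim probes. Of 83 values of the 6 miRNAs under alternatives, 57 moved by less than the SD over spots and 26 by more. The series' value table gave the same values as the scanner files. Detection of the dim members depended on the filter. The software's own call had all 7 members detected in normoxia, miR-195a-5p included, and 6 in hypoxia, miR-103-3p included. miR-497a-5p was lost in hypoxia when every spot had to be above background, and miR-103-3p was detected on both arrays, at 0.22, from the even-numbered spots. Beyond the moves that a scaling or the offset makes by its construction, the cause was not tested. Signal over background limits miR-195a-5p, miR-103-3p and miR-497a-5p, and the number of arrays limits everything else.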
